A study of Salmo salar with 18 samples.

Results

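In the liver of Atlantic salmon (Salmo salar), 48 probes of the 11761 with a value on all 18 arrays were set apart in fish warmed in normoxic water and less so in fish warmed in hypoxic water. Of these, 10 were higher (rising members) and 38 lower (falling members) in the warmed normoxic fish. They were chosen on the deposited log2 ratios. All 6 values of warm and normoxic (WN) fish had to lie beyond all 6 values of control (CT) fish on one side, and the WN mean had to go beyond the mean of warm and hypoxic (WH) fish by at least 0.5 on the log2 scale in that same direction. A further 2 probes met the rule on the rising side and are in the study's qPCR gene table, so they were left out. The rule uses the WH, WN and CT values of these arrays, so the differences between treatments that it fixes are given as descriptions, without a test.

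WH fish were warmed at 1 °C per week from 12 to 20 °C at 70% air saturation, after the oxygen had been lowered over 1 week and held for 2 weeks. WN fish went through the same warming at 100% air saturation, and CT fish stayed at 12 °C and 100% air saturation. WH and WN fish were sampled 3 days after reaching 20 °C. All were juveniles (post-smolts) in seawater that were fed by hand to satiation and fasted before they were sampled, 6 per treatment and 3 from each of 2 tanks. Liver RNA of each fish was labelled with Cy5 and hybridized, on an Agilent 44K array, with a Cy3-labelled pool of RNA from all 18 fish. Each value is thus a log2 ratio of one fish to the same pool, and 1 unit is a doubling. Each of the 6 tanks held a single treatment. In pieces of whole liver, fewer cells of a type and less RNA per cell cannot be told apart.

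Salmon are ectotherms, so the temperature of the water sets the rate of their metabolism, while warm water holds less oxygen and the tissues demand more of it. The liver answers warming with changes in protein folding, protein breakdown, energy and lipid metabolism. Low oxygen by itself acts on liver through the oxygen-sensing hypoxia-inducible factors and through the supply of oxygen to mitochondria.

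The rule was met by few of the probes that separated WN from CT fish. All 6 WN values lay above all 6 CT values in 207 probes (1.76% of those with 18 values) and below them in 344 (2.92%). Among the 207, the WH mean fell short of the WN mean by at least 0.5 in 12 probes, lay within 0.5 in 193 and went beyond it in 2. Among the 344, the counts were 38, 296 and 10. These probes were picked for WN values beyond all CT values, which favours WN means that lie far out. Shortfalls of the WH mean are thus favoured over the reverse, and nothing is read from these counts. With the roles of WH and WN fish exchanged in the rule, 49 probes were found on the higher side and 35 on the lower. Over all probes, the WH mean was lower than the WN mean by 0.5 or more in 331 (2.81%) and higher by as much in 747 (6.35%), so differences of that size were more frequent in the direction of the falling members whatever the CT values. A limma fit over 23846 probes called 0 between WH and WN fish at an adjusted p under 0.05, with 1377 (5.77%) at an unadjusted p under 0.05.

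Just inside the threshold, the WH minus WN difference was -0.51 for MMP13, -0.52 for PARP1 and -0.56 for TBC1D24 among rising members. Among falling members it was 0.50 for DHPS, 0.51 for C124R036 and 0.52 for C169R002. Just outside it were NCEH1 (C023R127) at -0.498, BANF1 (C178R112) at -0.498 and the unnamed C002R143 at -0.46 on the rising side, and HKDC1 (C236R098) at 0.496, C180R071 at 0.49 and BTG2 (C044R014) at 0.49 on the falling side. The probes on both sides of the threshold thus differed by a few hundredths of a log2 unit.

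Gene symbols come from the study's annotation of its WN list, in which 24 members have an entry. It names 9 of the 10 rising and 14 of the 38 falling members, and the strongest falls of that list could not be read, so a missing symbol says nothing of the gene. Each symbol was that of 1 member probe, and 0 genes had more. Of 22 members matched there to a RefSeq transcript, 18 were found in the RefSeq gene table of assembly Ssal_v3.1. Names were counted in 13 pathway lists beside the 1026 named probes with 18 values that are not in the qPCR gene table. The chaperone, hypoxia and redox probes of that table were thus not counted. Of the rising members, 2 were in a list, ABHD4 in fatty acid and lipid metabolism (1 of its 22 named probes) and MMP13 among immune and inflammatory genes (1 of 21). Of the falling members, 6 were, with 2 of 31 named probes in translation and ribosome (MRPL38 and EIF1AX). The others were 1 of 61 in proteasome and ubiquitin (PSMB7), 1 of 20 in mitochondrial respiration (NDUFAF6), 1 of 22 in lipid metabolism (ACSS2) and 1 of 35 in RNA processing (SNRPA1). No member was among the 28 named probes of chaperones, the 3 of the hypoxia response or the 20 of redox and detoxification, nor among the 2 of sterol synthesis, the 14 of amino acid metabolism, the 12 of carbohydrate metabolism or the 17 of cell cycle and DNA. In no list did members make up more than a few probes.

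Of the rising members, the probe of MPDZ (C239R160), a scaffold protein with many PDZ domains that sits at cell junctions, had the largest differences on both counts. Its log2 ratios were -1.81 to 0.54 (median -0.65) in WH fish, -0.023 to 0.80 (median 0.44) in WN fish and -4.39 to -2.45 (median -3.15) in CT fish. All 6 WH fish were above all 6 CT fish, but WH-3, WH-5 and WH-6 lay below every WN fish while the other 3 WH fish lay among them. In the deposited ratios, the WH mean was 2.61 above the CT mean and the WN mean 3.70 above it, a 13-fold difference. WH fish thus kept 70.7% of the WN change. With the 2 colours set apart and each centred on its array, the WN minus CT difference was 2.55 in Cy5 and -0.17 in Cy3. The WH minus WN difference was -1.08, and within the 3 slides that held both warm treatments it was -1.25, -0.52 and -1.94.

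The rising members fell into a set of 4 with a large difference between WN and CT fish and a set of 6 with a small one. In the first set, with MPDZ, were the probes of FAM73A (mitoguardin 1, an outer mitochondrial membrane protein that acts in mitochondrial fusion), CAPN1 (calpain-1, a calcium-activated protease) and MMP13 (collagenase 3, which cleaves fibrillar collagen). FAM73A (C246R087) had ratios of -3.18 to 1.53 (median -0.17) in WH fish, -0.70 to 2.19 (median 0.31) in WN fish and -6.19 to -0.87 (median -2.03) in CT fish. The WH fish split widely, with WH-1, WH-2 and WH-6 at 0.86, 1.40 and 1.53. WH-3, WH-4 and WH-5 lay below every WN fish and within the CT range. This split also shows by slide, where the WH minus WN difference was 1.74, 0.11 and -2.34, and the mean over slides was -0.16 against -0.74 over all 12 fish. Without WH-5 the difference was -0.17, without WN-4 -0.38 and without WH-6 -1.11, so single arrays set much of its size. Its Cy5 signal was above background in 5 of 6 WH, 6 of 6 WN and 4 of 6 CT fish, so its CT mean and the share kept are not firm. Its WN minus CT difference was 3.08 in the deposited ratios. With the colours set apart, this difference was 1.36 in Cy5 and -0.29 in Cy3.

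For CAPN1 (C253R089) the ratios were -1.29 to 0.79 (median -0.24) in WH fish, -0.40 to 1.16 (median 0.30) in WN fish and -3.23 to -1.27 (median -2.15) in CT fish. The 3 WH fish WH-1, WH-2 and WH-5 were below every WN fish, and 2 of these lay within the CT range. MMP13 (C245R152) had ratios of -1.06 to 0.52 (median -0.65) in WH fish, -1.44 to 1.35 (median 0.028) in WN fish and -2.87 to -1.49 (median -2.67) in CT fish. Every WH fish was above every CT fish and within the WN range, and no WH fish fell short of all WN fish, since WN-2 and WN-3 were themselves low. The WH minus WN difference of MMP13 was -0.25 without WN-5, -0.24 without WN-6 and -0.80 without WN-2, in place of -0.51. In tank means, MMP13 was -0.30 and -0.70 in the WH tanks and -0.69 and 0.70 in the WN tanks. The WN tanks lay further apart than the treatments did, and MMP13 and FAM73A were the rising members whose WH tank means were not both below both WN tank means. In these 4 probes, WH fish kept 70.7% (MPDZ), 76.1% (FAM73A), 73.6% (CAPN1) and 79.5% (MMP13) of the mean WN change. In the mean, most of the WN change was thus present in WH fish. For FAM73A this mean joins 3 WH fish within the CT range and 3 above it, and the CT mean is not firm. The shortfall of 0.5 that the rule asks for is small against a large WN change, so high shares were open only to members with such changes.

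The second set comprised the probes of AKTIP, DSC1, ABHD4, TBC1D24, PARP1 and the unnamed C174R165, with WN means 0.76 to 1.34 above the CT means. AKTIP (C081R153) encodes a protein that binds the kinase AKT and takes part in vesicle traffic. Its ratios were -0.40 to -0.049 (median -0.15) in WH fish, 0.13 to 0.60 (median 0.36) in WN fish and -0.61 to -0.36 (median -0.56) in CT fish. It was the only rising member in which WH and WN fish did not overlap, that is 1 of 10, against 0.0765% of all probes with the WH fish lower, a difference that the rule itself favours. Of the 6 WH fish, 5 were above all CT fish. The WH mean kept 37.4% of the WN change, and the difference between WH and WN fish was -0.56, with -0.43, -0.65 and -0.31 within slides.

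DSC1 (C180R126), desmocollin-1, an adhesion protein of desmosomes, had a WH mean at 23.8% of the WN change. Its Cy5 signal was above background in 4 of 6 CT fish, so the CT mean and this share are not firm. Its ratios were -0.94 to 0.31 (median -0.14) in WH fish, -0.16 to 0.84 (median 0.29) in WN fish and -0.89 to -0.26 (median -0.35) in CT fish, so that WH fish spread over the ranges of both other treatments. ABHD4 (C074R138), a lipase that in mammals acts on N-acyl phospholipids, kept 35.7%, and TBC1D24 (C215R112), a protein of vesicle traffic, 35.9%. In ABHD4 the ratios were -0.83 to 0.020 (median -0.14) in WH fish, -0.15 to 0.62 (median 0.17) in WN fish and -0.95 to -0.28 (median -0.66) in CT fish, and in TBC1D24 they were -0.92 to 0.44 (median -0.0072) in WH fish, 0.26 to 0.73 (median 0.45) in WN fish and -1.16 to 0.12 (median -0.24) in CT fish. In ABHD4, 2 WH fish lay within the CT range and 3 below every WN fish, and in TBC1D24 these were 4 and 5 fish.

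PARP1 (C018R132), an enzyme that adds poly(ADP-ribose) to proteins at DNA breaks, had ratios of -0.58 to 0.23 (median -0.050) in WH fish, -0.044 to 0.95 (median 0.38) in WN fish and -1.64 to -0.24 (median -0.45) in CT fish. The WH mean lay almost midway, at 49.0% of the WN change. The unnamed C174R165 also lay near the middle, at 48.8%, with ratios of -0.36 to 0.86 (median -0.084) in WH fish, 0.24 to 1.53 (median 0.58) in WN fish and -1.32 to 0.22 (median -0.73) in CT fish. Of the WH fish, 5 were within the CT range in C174R165, and WH-6 alone was above it.

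Over the 10 rising members, the median WH minus WN difference was -0.57 (range -1.08 to -0.51), where the median over all 11761 probes was 0.078. The median WN minus CT difference was 1.18 (0.76 to 3.70) and the median WH minus CT difference 0.58 (0.18 to 2.61), beside medians over all probes of -0.036 and 0.039. The share of the WN change that WH fish kept was 23.8% (DSC1) to 79.5% (median 48.9%), and in 6 of the 10 the WH mean was nearer to the CT mean than to the WN mean. The rule asks for a shortfall of at least 0.5, which takes a larger share of a small WN change. It thus limits the share kept and forces a WH mean nearer to the CT mean where the WN change was small. Nothing is read from these shares or from the count. The WH values lay above all CT values in 2 of the 10, MPDZ and MMP13, where 2.7% of all probes had all WH values above all CT values. In none did the WH mean reach the CT mean.

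The median over the 10 members in each fish was -0.56 to 0.091 (median -0.14) in WH fish, 0.30 to 0.63 (median 0.37) in WN fish and -1.19 to -0.45 (median -0.87) in CT fish. Neither WH and WN fish nor WN and CT fish overlapped, while WH-5 lay below the highest CT fish. The rule fixes the gap between WN and CT fish and favours that between WH and WN fish, so neither is a result. WH-5 fell short of all WN fish in 8 of the 10 members and WH-6 in 2, and WH-6 was above all CT fish in all 10. The other 4 WH fish fell short of all WN fish in 5 to 7 members each. Across the 3 slides with both warm treatments, 7 of the 10 kept the direction in each slide, a count that the rule favours.

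Among the falling members, the largest WH minus WN difference was that of the unnamed probe C264R025. Its ratios were -0.27 to 1.10 (median 0.018) in WH fish, -1.77 to -0.59 (median -0.91) in WN fish and -0.38 to 1.14 (median 0.24) in CT fish. No WH fish overlapped with a WN fish and all 6 lay within the CT range, so that the WH mean was only 0.10 below the CT mean where the WN mean was 1.34 below it. C113R012, also unnamed, was next, with ratios of -0.67 to 0.46 (median 0.19) in WH fish, -2.15 to 0.16 (median -1.09) in WN fish and 0.50 to 1.50 (median 0.72) in CT fish. Here all 6 WH fish lay below all CT fish.

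EDF1 (C170R061), a transcriptional coactivator that also acts at stalled ribosomes, had ratios of -0.076 to 0.49 (median 0.31) in WH fish, -0.69 to -0.25 (median -0.39) in WN fish and -0.24 to 0.59 (median 0.29) in CT fish. All WH fish lay within the CT range and above every WN fish, and EDF1 was the 1 of 38 whose WH mean was on the far side of the CT mean, by 0.013. Its WN mean was 0.68 below the CT mean, the smallest difference from CT fish among the 38. SNRPA1 (C168R063), the A′ protein of the U2 snRNP in the spliceosome, had ratios of -0.27 to 0.093 (median -0.16) in WH fish, -1.07 to -0.58 (median -0.83) in WN fish and -0.49 to 0.49 (median 0.13) in CT fish. Again no WH fish overlapped with a WN fish, all 6 lay within the CT range, and WH fish kept 24.5% of the WN change.

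MRPL38 (C104R013), a protein of the large subunit of the mitochondrial ribosome, had ratios of -0.018 to 0.48 (median 0.049) in WH fish, -0.69 to -0.053 (median -0.52) in WN fish and -0.048 to 0.72 (median 0.43) in CT fish, also without overlap between WH and WN fish. With C264R025 and C124R036, these make 5 of 38 falling members in which WH fish lay above all WN fish, where 0.179% of all probes do so. The rule favours such probes, and nothing is read from the share. EIF1AX (C201R018), an initiation factor that helps the ribosome find the start codon, had ratios of -0.52 to 1.06 (median 0.20) in WH fish, -0.73 to -0.079 (median -0.25) in WN fish and 0.22 to 1.10 (median 0.43) in CT fish, and DHPS (C095R026), which makes the hypusine residue of the factor eIF5A, had ratios of -0.50 to 0.68 (median 0.12) in WH fish, -0.90 to -0.11 (median -0.29) in WN fish and -0.093 to 0.93 (median 0.38) in CT fish. In both, 5 of 6 WH fish were above every WN fish.

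PSMB7 (C135R028), a catalytic subunit of the proteasome core, had ratios of -0.61 to 0.26 (median -0.042) in WH fish, -1.16 to -0.37 (median -0.64) in WN fish and 0.079 to 0.57 (median 0.26) in CT fish, and WH fish kept 35.8% of the WN change. CTDSP2 (C130R029), a small phosphatase of the C-terminal domain of RNA polymerase II, had the largest difference between WH and WN fish of the named falling members, 0.77. Its ratios were -0.39 to 0.41 (median 0.17) in WH fish, -1.54 to -0.12 (median -0.55) in WN fish and 0.21 to 1.10 (median 0.43) in CT fish, and WN-2 lay far below the other WN fish. In the slide with 1 WH and 1 WN array, the difference in CTDSP2 was -0.27, against 1.37 and 0.84 in the slides with 3 or 4 such arrays.

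ACSS2 (C165R037), which turns acetate into acetyl-CoA in the cytosol, had ratios of -0.98 to 0.14 (median -0.026) in WH fish, -1.23 to -0.39 (median -0.84) in WN fish and -0.33 to 0.53 (median 0.39) in CT fish, and RGN (C015R136), regucalcin, a calcium-binding liver protein with gluconolactonase activity, -0.77 to 0.70 (median -0.42) in WH fish, -1.29 to -0.44 (median -0.84) in WN fish and -0.31 to 0.75 (median 0.063) in CT fish. Of the WH fish, 4 in ACSS2 and 3 in RGN lay above every WN fish. NDUFAF6 (C158R127), an assembly factor of respiratory complex I, had ratios of -1.84 to 0.50 (median -0.77) in WH fish, -3.67 to -0.40 (median -0.75) in WN fish and -0.35 to 0.65 (median 0.19) in CT fish. The lowest WN value is that of WN-1, and without this array the WH minus WN difference of NDUFAF6 was 0.024 in place of 0.52, and without WH-2 it was 0.28. Within slides, its difference averaged -0.13, the reverse of its sign over all 12 fish.

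CD63 (C150R045), a tetraspanin of late endosomes and lysosomes, had ratios of -0.25 to 0.58 (median 0.16) in WH fish, -0.65 to 0.019 (median -0.40) in WN fish and 0.020 to 0.74 (median 0.30) in CT fish, and its WH mean lay 0.16 below the CT mean. In CD63, 3 WH fish lay above every WN fish and the other 3 within the WN range. The last named members, MMTAG2 (C221R149) and a probe listed as WWP1 (C104R010), were added after their values were seen. They had WH minus WN differences of 0.55 and 0.54. The annotation of C104R010 pairs that symbol with the description of a mitochondrial carrier protein, so the gene it measures is unsettled.

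Over the 38 falling members, the median WH minus WN difference was 0.63 (0.50 to 1.24), the median WN minus CT difference -1.37 (-2.70 to -0.68) and the median WH minus CT difference -0.70 (-2.13 to 0.013). WH fish kept -1.91% to 78.8% of the WN change (median 48.1%). The 14 named members had smaller WN changes (median -0.92) than the 24 unnamed (median -1.45), which goes with the unread entries for the strongest falls. The WH mean was nearer to the CT mean in 13 of the 14 and in 7 of the 24. The shortfall of at least 0.5 that the rule asks for is a larger share of a small WN change. The rule thus favours the higher count in the named members, and nothing is read from that contrast. WH values lay below all CT values in 4 of the 38, all unnamed (C113R012, C192R015, C147R018 and C207R003), where 2.75% of all probes had all WH values below all CT values.

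The falling members shared a trait that the rule did not use, their place on the array. Of the 38, 25 (65.8%) lay in the first 30 of the 170 rows of spots, where 16.4% of the 11761 probes lay. The same rows held 22.1% of the 344 probes whose WN values were below all CT values and 2.9% of the 207 whose WN values were above. Several members were neighbours, such as C113R012, C113R014 and C110R012, or C104R010 and C104R013. The 10 rising members all lay in rows 86 to 170, which held 4 of the 38 falling members and 50.6% of all probes. The median row was 135 for rising and 24.5 for falling members, where that of all probes was 86.

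Probes that are not members were shifted in the same rows. Over the 1903 of them in rows 1 to 30, the median WH minus WN difference was 0.27 and the median WN minus CT difference -0.23, where rows 31 to 170 gave 0.042 and 0.0035 over all probes. Relative to the median of the whole array, the median of these non-member probes was -0.51 on the WN-2 array and -0.20 on the WN-1 array, and between 0.00029 and 0.39 on the other 16. On WN-1 it was lowest in rows 1 to 10 (-0.58) and had turned to 0.29 in rows 21 to 30. On WN-2 it ran along the whole array, with -0.50 in rows 1 to 10 and 0.39 in the last 30 rows. Among the WH arrays, WH-4 was highest in rows 11 to 20 (0.56), and among the CT arrays CT-4 in rows 1 to 10 (0.47). In the first 30 rows as a whole, 2 of the 6 WN arrays thus had a median below that of their own array. No other array did. With WN-1 and WN-2 left out together, the median WH minus WN difference of the falling members was 0.55, in place of 0.63. Of these members, 26 still met the rule and the others did not. The members were chosen for this difference, and the rule is easier to meet with fewer WN arrays. How much of the difference comes from these arrays was not tested further. Among the 344 probes with WN values below all CT values, the median WH minus WN difference was 0.39 for the 76 in rows 1 to 30 and 0.18 for the 268 in rows 31 to 170.

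To measure how much of the falling members' difference goes with the rows, each value was set against the median of all probes within 5 rows on the same array. This setting was chosen after the data had been seen. The median WH minus WN difference of the 38 then fell to 0.43, with 0.36 for the 25 in rows 1 to 30 and 0.57 for the 13 in rows 31 to 170. The rule was still met by 13 of the 38, which were 6 of the 25 and 7 of the 13, and by 2 further probes, C116R140 and that of SEC11A (C255R075), a subunit of the signal peptidase, which were named after their values were seen. Of the 14 named falling members, 5 still met it, CTDSP2, SNRPA1, RGN, MMTAG2 and NDUFAF6. The others had row-corrected WH minus WN differences from 0.19 (MRPL38) to 0.58 (EDF1, whose WN and CT values then overlapped). C264R025 kept a difference of 1.03, but its WN and CT values overlapped.

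Among the rising members, the same setting left the median difference at -0.58, and 4 of the 10 still met the rule, MPDZ, FAM73A, CAPN1 and TBC1D24. Another 9 probes met it that had not before. Of the 6 that no longer met it, PARP1, AKTIP and MMP13 had differences of -0.48, -0.50 and -0.46. The other 3 (ABHD4, DSC1 and C174R165) stayed past 0.5 but had WN and CT values that overlapped.

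The median over the 25 falling members in rows 1 to 30 was -0.27 to 0.25 (median -0.14) in WH fish, -1.10 to -0.49 (median -0.74) in WN fish and 0.34 to 0.74 (median 0.62) in CT fish. With row medians removed it was -0.32 to 0.043 (median -0.27) in WH fish, -0.76 to -0.48 (median -0.61) in WN fish and 0.33 to 0.57 (median 0.47) in CT fish. Over the 13 in rows 31 to 170, the median was -0.40 to 0.14 (median -0.19) in WH fish, -0.91 to -0.56 (median -0.68) in WN fish and 0.020 to 0.53 (median 0.33) in CT fish, and with row medians removed -0.39 to 0.22 (median -0.20) in WH fish, -0.79 to -0.39 (median -0.61) in WN fish and 0.11 to 0.55 (median 0.34) in CT fish. In the first rows the spread between WN fish narrowed, and WH, WN and CT fish did not overlap in these medians either way. In the other rows, WH fish overlapped with CT fish but not with WN fish, although the lowest WH and the highest WN fish were nearly level once row medians were removed. These are medians over members chosen for that order, so the order is no result.

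The 2 colours were also set apart, each centred on the median of the 23846 probes tested on its array. The Cy3 channel holds the same pool on every array. For rising members, the median WH minus WN difference was -0.35 in Cy5 and 0.23 in Cy3, where all 11761 probes had 0.21 and 0.20. In absolute size, without the shift of all probes taken off, the Cy5 difference was the larger of the 2 in 7 of the 10. Single members went both ways in the pool channel, with Cy3 differences of -0.69 for TBC1D24, -0.61 for DSC1, 0.46 for FAM73A and 0.52 for PARP1. The Cy5 differences of PARP1 and FAM73A were 0.013 and -0.018. Beside the medians of all probes, these 2 members were thus lower in Cy5 and higher in Cy3. For falling members it was 0.55 in Cy5 and 0.057 in Cy3, which differs from all probes in both channels. Non-member probes of rows 1 to 30 had 0.26 in Cy5 and 0.080 in Cy3. The median Cy3 signal on this scale was 0.66 for rising and 1.28 for falling members, beside 1.26 for all 11761 probes. In Cy5, 7 of the 10 and 24 of the 38 were above background on all 18 arrays. That count was not made over all probes, so nothing is read from it. FAM73A and DSC1, above background in 4 of 6 CT fish each, and MMTAG2, in 4 of 6 WN fish, were the named members with the fewest such arrays in a treatment.

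By tank, both WH means lay on the CT side of both WN means in 8 of the 10 rising and in 37 of the 38 falling members. The exceptions were MMP13, FAM73A and C169R002. Tank means are made of the values that chose the members, so the rule favours such counts and nothing is read from them. Within slides, the direction held in each of the 3 slides in 7 of the 10 and in 21 of the 38. These differences are made of the same values, so nothing is read from these counts either. The mean of the within-slide differences had a median of -0.50 over rising and 0.45 over falling members. The falling members' difference was smallest within the slide of 1 WH and 1 WN array, at 0.25, and was 0.56 and 0.64 within the others, of which one holds WN-2. The WN-1 array shares its slide with no WH array.

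The rule did not use the other probes that carry the same symbols. There were 12 of these, for 9 of the named members, and they were tested in the limma fit over 23846 probes, on log2 ratios computed from the scanner files. They come from the same fish, and the annotation lists them because the study had called them between WN and CT fish on these arrays. The WN values behind that listing also enter the difference between WH and WN fish. The listing thus favours a WH mean on the CT side, and nothing is read from the counts of signs and unadjusted p. In the deposited values, the median WH minus WN difference was 0.21 in the 344 probes with WN below CT values. It was -0.078 in the 207 with WN above them. None of the 12 passed an adjusted p under 0.05 for the difference between WH and WN fish, as did none of all probes (0.0%). Of the 12, 3 had an unadjusted p under 0.05, beside 5.77% of all probes. That count was 0 without WH-4, 1 without WH-1, WN-4 or WN-5, with median centring or with row medians removed, and 4 at most (without WH-2). In 10 of the 12, the difference had the sign of the member's. These were all 8 of falling and 2 of the 4 of rising members, and the median over all probes tested was 0.033. The sign was taken from the member and not from the probe's own change with warming. C060R147 of CTDSP2 is counted although it rose with warming (WN minus CT 1.04) and its WH mean lay 0.023 beyond the WN mean. C092R006 of CAPN1 is not counted although it fell (-0.98) and its WH mean lay 0.32 toward the CT mean (0.10 with row medians removed).

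The other probe of RGN (C129R060, row 60), matched to the same RefSeq gene as the member, had ratios of -0.39 to 0.55 (median -0.13) in WH fish, -0.85 to -0.17 (median -0.59) in WN fish and -0.25 to 0.83 (median 0.095) in CT fish. Its WH minus WN difference was 0.50 (SE 0.21, limma adjusted p = 0.847), beside 0.53 for the member in the same values. It lay outside the first 30 rows, as does the member, and with row medians removed its difference was 0.43. Over all settings it ranged over 0.25 to 0.57. The member's difference in the deposited values, 0.56, was 0.22 within slides, 0.28 with the slide effect removed and 0.37 without WH-4. PARP1 had one other probe in the same RefSeq gene, C083R168, at -0.46 (SE 0.24, limma adjusted p = 0.852), beside -0.46 for the member. Another, C250R051, whose transcript was not in the RefSeq table, stood at 0.087 (SE 0.43, limma adjusted p = 0.985). The difference at C250R051 was far smaller than its standard error.

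PSMB7 had 2 other probes, each matched to another RefSeq gene than the member. C186R021 (row 21) was at 0.62 (SE 0.27, limma adjusted p = 0.847) and C078R131 (row 131) at 0.038 (SE 0.26, limma adjusted p = 0.989), beside 0.59 for the member in row 28. The probes of PSMB7 in the first 30 rows had similar differences and the one outside them had almost none. As each matches another RefSeq gene, row and gene cannot be told apart. With row medians removed, C186R021 was at 0.47 and C078R131 at 0.11. The other EIF1AX probes, in other RefSeq genes than the member, lay in the same order. C240R005 (row 5) was at 0.31 (SE 0.27) and C194R051 (row 51) at 0.090 (SE 0.17), and with row medians removed they were at 0.11 and 0.013. MMTAG2 had an other probe of the same RefSeq gene in row 13, C058R013, at 0.26 (SE 0.22), which was -0.052 with row medians removed.

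For ACSS2, C080R037 was at 0.42 (SE 0.20, limma adjusted p = 0.847), beside 0.58 for the member. Both lie in row 37. MMP13 had another probe in the same RefSeq gene, C018R115, with ratios of -0.70 to 0.75 (median -0.30) in WH fish, -0.78 to 0.88 (median -0.12) in WN fish and -2.14 to -0.50 (median -1.44) in CT fish. Its WH minus WN difference was -0.085 (SE 0.34), beside -0.50 for the member in the same values. The member's difference in the deposited values, -0.51, was itself smaller than the spread between fish (SD 0.99).

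In 2 genes the other probe went against the member in the change with warming itself. For CTDSP2, C060R147 had ratios of -0.21 to 0.32 (median -0.14) in WH fish, -0.57 to 0.80 (median -0.11) in WN fish and -1.50 to -0.83 (median -1.05) in CT fish, a WN minus CT difference of 1.04 (SE 0.21, limma adjusted p = 0.00463) where the member's was negative, and a WH minus WN difference of 0.023 (SE 0.21). For CAPN1, C092R006 had ratios of -0.74 to 0.17 (median -0.10) in WH fish, -1.28 to 0.019 (median -0.39) in WN fish and 0.30 to 0.87 (median 0.43) in CT fish, a WN minus CT difference of -0.98 (SE 0.23, limma adjusted p = 0.0129) where the member's was positive, and a WH minus WN difference of 0.32 (SE 0.23). C092R006 lies in row 6, and with row medians removed its WH minus WN difference was 0.10 and its WN minus CT difference -0.68. Salmon carry duplicated genes that can share a symbol, and the transcripts of these 2 probes were not found in the RefSeq table used, so whether they measure the same gene as the member is not known.

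Among the 12 other probes, 7 passed an adjusted p under 0.05 between WN and CT fish, where 4.94% of all probes tested did. Since they were listed for that difference, nothing is read from the share. Between WH and CT fish, 3 passed (CTDSP2 C060R147, MMP13 C018R115 and PARP1 C250R051, all higher in WH fish), where 5.14% of all probes tested did. The CT values behind the listing also enter this difference, so nothing is read from that share either. The defining markers of liver cells could not be checked, as 0 named probes on all 18 arrays were hepatocyte or pancreas markers. Names come from the study's list of probes called between WN and CT fish, so markers without such a call could not enter. Nothing is read from the differences of the named markers between WN and CT fish. The named red blood cell markers were 2 probes of ALAS2, with a mean log2 ratio of -0.86 to 0.31 (median -0.34) in WH, -0.83 to -0.11 (median -0.36) in WN and -0.15 to 0.62 (median 0.31) in CT fish. White blood cell markers were 3 probes of IGHM, with -1.19 to 0.12 (median -0.46) in WH, -1.33 to 0.053 (median -0.78) in WN and -0.18 to 1.04 (median 0.084) in CT fish. Bile duct and stellate cell markers were COL1A1 and KRT8, with -0.60 to -0.094 (median -0.28) in WH, -0.35 to 0.15 (median -0.17) in WN and -0.49 to 0.29 (median -0.27) in CT fish. The part of other cell types in the members' differences was not tested. The arrays WN-5 and CT-6 were read from another scan image than the rest of their slide. On WN-5, where rising members were highest in the median (0.63), the median over all probes was -0.32, against -0.13 to -0.0073 on the other 17 arrays. Cy5 signal on WN-5 exceeded background by a median factor of 14.0, against 28.3 to 110.5 on the other 17. Without WN-5 and CT-6, the median WH minus WN difference was -0.54 in rising and 0.57 in falling members.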

How the data were processed

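Liver RNA of 18 fish was measured on 18 two-colour arrays. The authors scanned the slides and quantified the spots with ImaGene, and the deposited scanner files hold each spot's signal intensity, local background and quality flag. For the processed table, the authors subtracted background, dropped spots of poor quality, applied loess to each array, took log2 ratios of Cy5 to Cy3 and kept probes present on 75% of the arrays. It holds values for 17072 probes and for 11761 on every array. No reference genome or build applies to these values.

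Members were found on the deposited log2 ratios. Members, gene lists and tests were chosen with earlier results of these data known. For tests, the intensities were corrected by normexp (offset 50) and turned into loess-normalized log2 ratios in limma (version 3.58.1) under R (version 4.3.3), control and flagged spots having no weight and flagged spots then set to missing. Of 43689 probes, 23846 were tested, those whose signal in Cy5 or Cy3 exceeded background by 2 SDs of the background on 14 or more arrays. Treatments were compared in one limma fit of 3 groups with Benjamini-Hochberg adjustment over all probes tested and a threshold of 0.05. Fish were the unit, although treatment was given to tanks. The fit and the rule were tested on simulated data. Tables were made with Python (version 3.11.15) and pandas (version 2.3.3).

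Per array, 8.93% to 17.3% of the probes carried a quality flag, and signal exceeded background by a median factor of 14.0 to 110.5 for Cy5 and 18.0 to 251 for Cy3. The number of arrays limits the precision.

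The genes named were, in each direction, the 8 named members with the largest WH minus WN difference, the 3 with the largest WN minus CT difference, up to 3 per pathway list, the 3 whose WH mean was nearest to the CT mean, those next to the threshold, the 2 largest unnamed members and every other probe of these genes. One named member is counted but not reported here by name. The alternatives were other background corrections and normalizations, slide removed or as a block, the replicate number as a block, other thresholds and filters, and each array left out. Row medians, the first rows and the scan images were added after the data had been seen. Fold changes and p-values in the annotation table hold the authors' own comparisons and were not used.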

Additional observations from a re-analysis of the deposited data

Results flagged for a closer look

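In 28 members and 3 treatments, 84 groups of 6 fish were examined for a fish far from the others, and 10 fish values stood apart. Chance gives such a value in about 1 of 20 groups that are independent and not chosen by their values. These groups share the same arrays, and their members were chosen on the same values. The count of 10 thus cannot be set against that share, and nothing is read from it. Of the 10, 5 lay in CT fish. CT-2 was the highest CT fish in CTDSP2 (1.10, next 0.49), EIF1AX (1.10, next 0.53) and C113R012 (1.50, next 0.76), all in rows 1 to 30, where the CT-2 array was itself high by 0.39. CT-3 was low in PARP1 (-1.64, next -0.60), and CT-5 was high in MMP13 (-1.49, next -2.44). Among WN fish, WN-1 was low in NDUFAF6 (-3.67, next -1.16) and WN-2 in CTDSP2 (-1.54, next -0.64). Among WH fish, WH-6 was high in C174R165 (0.86, next 0.069), WH-4 was high in C264R025 (1.10, next 0.24), and WH-2 was low in C113R012 (-0.67, next 0.11).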

How the results depend on the processing

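The number of members moved more with the settings than their differences did. With scanner values, the rule gave 8 rising and 24 falling members after normexp and loess, 10 and 31 after subtraction and loess, and 4 and 22 after median centring. It gave 33 rising and 60 falling with the slide effect removed, 31 and 66 at a threshold of 0.4, 4 and 22 at 0.6, and 16 and 59 with 5 arrays per treatment sufficing. Of the settings added later, row medians removed gave 13 and 15, probes below row 30 alone 10 and 13, leaving out WN-5 with CT-6 21 and 42, and leaving out WN-1 with WN-2 25 and 72. Leaving out single arrays gave 10 to 21 rising members, with 16 to 21 without WH-2, WH-3, WN-1, WN-3, WN-4, WN-5, WN-6 or CT-3, and 31 to 88 falling members, with 59, 79, 71 and 88 without WN-1, WN-3, WN-4 and WN-6. With fewer WN or CT arrays, the condition that all WN values lie beyond all CT values is easier to meet. Counts without such arrays can rise for that reason alone. Any other cause was not tested. Of the members, 4 rising and 15 falling met the rule with median centring, and 7 and 24 with the slide effect removed.

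For the fixed members, the median WH minus WN difference kept its direction in every setting run. It went from -0.71 (without WN-1 and WN-2) to -0.44 (median centring) for rising members. For falling ones it went from 0.43 (row medians removed) to 0.68 (without WN-3). Single arrays left out gave -0.67 to -0.53 and 0.54 to 0.68. The members were chosen for a difference of at least 0.5 on these arrays. The rule thus favours a kept direction, in the medians and in single members, and nothing is read from it. Of 588 values of 28 members examined singly (23 of them with a symbol), 1 reversed, NDUFAF6 within slides at -0.13, where WN-1 has no part, and 1 moved by more than the spread between fish, MRPL38 with row medians removed, at 0.19. For WH against WN, no setting run and no array left out gave a limma call (0 probes), with 991 to 2386 probes at an unadjusted p under 0.05 in the settings that keep all 18 arrays, and 0 of the 12 other probes, of which 7 (without WN-5) to 11 (without WH-3) had the member's sign. Replicate numbers do not pair the fish, as the deviations of same-numbered WH and WN fish correlated by -0.13 to 0.094. With the replicate number as a block, 0 probes were called (smallest adjusted p = 0.0612), and the members' median differences stay -0.57 and 0.63 by construction. Dim probes and the 6 fish per treatment limit what can be seen.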
